A study of Mus musculus with 2 samples.

Results

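Chromatin remodelers and histone modifiers were followed in RNA labelled as ovary from Y123F homozygous mice (HOM) and wild-type littermates (WT). The members were the array probes whose gene symbol began with Smarc, Arid, Chd, Ino80, Kdm or Hdac, with a number after Arid, Chd, Kdm and Hdac. They came to 163 probes for 66 genes, of 34885 probes and 19057 genes with 1 symbol each. HOM mice carry a knock-in of the leptin receptor gene in which phenylalanine takes the place of 3 tyrosines of the long receptor form LepRb, on a C57BL/6 background, and WT mice were C57BL/6 of the same litters. All were females of 12 weeks by the study's text. RNA of each genotype was mixed into 1 pool, from 3 mice by the methods and from 6 by the supplement, and hybridized to 1 Illumina mouse whole-genome array. Since each genotype had a single array, no replicate error or p-value can be given, and every ratio below describes these 2 pools.

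Chromatin remodelers use ATP to slide, evict or exchange nucleosomes. The BAF and PBAF complexes (mammalian SWI/SNF), the ISWI and CHD remodelers and INO80 are separate families built round different ATPases. Lysine demethylases (KDM) remove methyl groups from histone tails, and histone deacetylases (HDAC) remove acetyl groups, mostly as subunits of corepressor complexes. In the female reproductive tract several of them act as partners of steroid hormone receptors.

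The 2 arrays and their labels were checked first. At a detection p-value below 0.01, 34.4% of 45281 probes were detected on the HOM array and 32.9% on the WT array, with the dimmest of them at 15.9 on the HOM array and 15.1 on the WT array. Of 17 measured genes that mark ovarian cells 4 were detected, while 6 of 7 smooth muscle genes and 8 of 10 genes of the uterus and reproductive tract were. Most markers thus go against the label ovary, and the samples are called here by their arrays. The 4 ovarian genes were *Gdf9* (34.8 on the HOM array, 21.3 on the WT array), *Inha* (49.3 and 21.6), *Bmp15* on the HOM array only and *Zp2* on the WT array only. Their median log2 HOM/WT was 0.31. Neither probe of *Lepr* itself passed detection, with signals of 5.89 and -3.68 on the HOM array and 7.45 and -6.16 on the WT array, so its level gives no check of the labels. The 4 detected of 5 leukocyte markers had a median log2 HOM/WT of 0.47. The summed signal of all 5 was 2450 on the HOM array against 1180 on the WT array. Most of that sum was *Cd74*, with 2212 on the HOM array and 1030 on the WT array (log2 HOM/WT 0.77). *Cd3e* was past 2-fold (log2 1.13), *Csf1r* had 0.18, *Adgre1* went the other way (-0.25) and *Ptprc* was not detected. The 8 detected uterine markers all had a log2 HOM/WT below 0, with a median of -0.355, *Esr1* at -1.44 and *Hoxa11* at -1.09, and their list summed to 3480 on the HOM array and 3880 on the WT array. The medians were -0.02 for 6 smooth muscle genes, 0.04 for 4 detected epithelial genes, 0.11 for 6 housekeeping genes and -0.30 for 3 proliferation genes. In such bulk RNA, fewer cells of a type and less RNA per cell cannot be told apart, and the part of cell composition in the results below was not tested.

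The brightest probe stood for each gene. Signals are printed as deposited, while log2 HOM/WT was taken after background correction by the normexp method, addition of 16 and quantile normalization between the arrays, so it is not the ratio of the printed signals. Of the 66 genes 55 were detected on at least 1 array (83.3%, against 51.5% of all genes), 48 of them on both arrays, 4 on the HOM array only and 3 on the WT array only. The chromatin genes had more probes per gene, 2.47 against 1.83 over all genes, and per probe the detected share was 48.5% for the chromatin genes and 40.7% for all genes. Of the 163 probes, 143 are annotated to a RefSeq transcript and 73 of these were detected, while 18 are annotated to a cDNA clone or other record and 5 of these were. The 11 genes not detected were *Arid3c*, *Arid4b*, *Arid5b*, *Chd5*, *Ino80d*, *Kdm3b*, *Kdm4d*, *Kdm5c*, *Kdm5d*, *Smarcd1* and the pseudogene *Smarca5-ps*, with signals between -1.55 and 15.7 on the HOM array and between -6.44 and 14.4 on the WT array. They get no fold. *Kdm5d* is Y-linked, and these mice were females.

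Detected genes whose log2 HOM/WT reached 1 or -1 (2-fold) were counted as changed, by size alone and with no test. By this rule 1 of the 55 detected chromatin genes was higher on the HOM array, *Smarcc1*, against 0.418% of all 9817 detected genes (41 genes). Lower on the HOM array were 3 of the 55, *Kdm1b*, *Kdm5a* and *Arid1b*, against 1.49% of all detected genes (146 genes). At 1.5-fold, 4 chromatin genes were higher, against 5.27% of all detected genes, and 8 were lower, against 8.3%. The 4 higher were *Smarcc1*, *Ino80b*, *Smarca4* and *Chd4*. The 8 lower were *Kdm1b*, *Kdm5a*, *Arid1b*, *Arid2*, *Arid3a*, *Kdm7a*, *Smarca5* and *Kdm5b*. Of these 8, 7 were detected on both arrays, while *Smarca5* was not above background on the HOM array and by its bound (below) is not shown to pass 1.5-fold. These are few genes, and nothing is read from the shares about the family as a whole. The median log2 HOM/WT of the 55 genes was -0.17, and that of all detected genes was 0.04. Without scaling between the arrays these medians were 0.09 and 0.28, so signs are read here relative to all detected genes, and 32 of the 55 lay below the median of all of them in both cases. Values given below as without scaling are therefore to be read against 0.28 and not against 0. The split of all calls also moved with the processing, with 78.1% lower here, 24.5% without scaling, 56.0% in the authors' normalized values and 92.3% when 50 was added in place of 16.

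**Figure D1:**
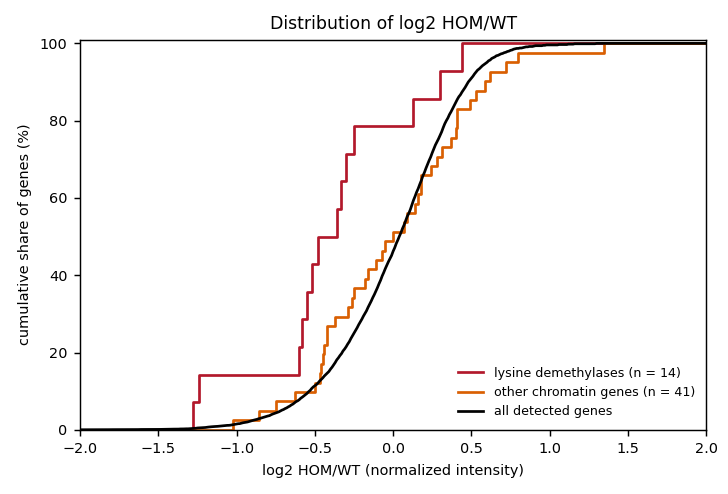
The plot shows the cumulative share of genes (vertical axis, %) at or below each log2 HOM/WT (horizontal axis) for 14 detected lysine demethylases, the 41 other detected chromatin genes and all 9817 detected genes. The demethylase curve lies left of the others at its middle, with a median of -0.425, while the other chromatin genes have a median of -0.01 and a wider spread than all genes.

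*Smarcc1*, the BAF scaffold subunit BAF155, had a signal of 82.2 on the HOM array and 18.4 on the WT array. Its HOM/WT ratio was 2.55 (log2 1.35), which ranked 3 from the top among the 9817 detected genes. The WT signal lay close to the dimmest detected probe, and a second probe of the gene was not detected, with 8.44 on the HOM array and 3.25 on the WT array. *Kdm1b*, a flavin-dependent demethylase of histone H3 lysine 4 known in mice for its role in oocytes, had signals of 60.3 on the HOM array and 141.6 on the WT array, a log2 HOM/WT of -1.29 and rank 32 from the bottom. Its other 4 probes were not detected. *Kdm5a*, a demethylase of the same lysine that also binds the retinoblastoma protein, had 18.9 on the HOM array and 57.4 on the WT array (log2 HOM/WT -1.25, rank 47 from the bottom). That probe is annotated to a cDNA clone and not to a RefSeq transcript, and the other 4 probes of *Kdm5a* were not detected, so its value rests on this 1 probe. *Arid1b*, a DNA-binding subunit of BAF, had 549.5 on the HOM array and 910.6 on the WT array (log2 HOM/WT -1.03, rank 126 from the bottom). This call was the least stable of the 4, since the log2 HOM/WT of *Arid1b* was -0.99 after median scaling and -0.71 without scaling, and its other detected probe had 22.8 on the HOM array and 16.4 on the WT array (log2 0.12). Over 10 settings of the processing at the same fold, the one reported here included, *Smarcc1*, *Kdm1b* and *Kdm5a* were past 2-fold in 9 and *Arid1b* in 6. All 4 genes were detected on both arrays, so the other detection rules could not move their values. The mean over detected probes could move only *Arid1b*, as the others have 1 detected probe each. Values without background correction and the authors' normalized values nearly coincide, so the count of 9 is not a count of independent checks.

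Windows round the annotated starts of these changed genes are shown as the sequence context of the genes that the counts turn on. They run from 250 bases before to 50 after the start in RefSeq (GRCm38.p6), and are labelled promoters by that annotation only. *Kdm5a* has no entry in the table used here. Capitals mark each GGGCGG box, the core recognized by Sp1, or its reverse complement CCGCCC.
Smarcc1 promoter, chr9:110131774-110132073, plus strand: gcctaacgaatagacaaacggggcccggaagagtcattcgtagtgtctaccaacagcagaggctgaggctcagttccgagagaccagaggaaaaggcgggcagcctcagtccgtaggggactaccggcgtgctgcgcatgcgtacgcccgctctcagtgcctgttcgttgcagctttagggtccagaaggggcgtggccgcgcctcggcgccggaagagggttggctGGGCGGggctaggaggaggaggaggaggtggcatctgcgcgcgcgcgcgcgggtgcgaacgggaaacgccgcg
Kdm1b promoter, chr13:47043249-47043548, plus strand: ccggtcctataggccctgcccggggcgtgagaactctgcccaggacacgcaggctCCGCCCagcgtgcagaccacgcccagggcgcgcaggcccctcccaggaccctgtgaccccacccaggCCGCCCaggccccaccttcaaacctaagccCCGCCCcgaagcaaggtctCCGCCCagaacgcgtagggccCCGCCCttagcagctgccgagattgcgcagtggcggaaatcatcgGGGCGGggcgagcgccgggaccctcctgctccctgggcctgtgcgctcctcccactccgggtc
Arid1b promoter, chr17:4994824-4995123, plus strand: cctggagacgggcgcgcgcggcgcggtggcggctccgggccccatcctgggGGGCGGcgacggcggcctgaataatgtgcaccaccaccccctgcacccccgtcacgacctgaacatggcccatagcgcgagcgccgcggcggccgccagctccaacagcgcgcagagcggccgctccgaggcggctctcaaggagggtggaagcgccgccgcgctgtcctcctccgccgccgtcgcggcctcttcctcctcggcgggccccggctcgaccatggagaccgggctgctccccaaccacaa
The box is present 1 time in the *Smarcc1* window, 6 times in that of *Kdm1b* and 1 time in that of *Arid1b*. Such windows were available for 49 of the 66 genes. GGGCGG on either strand was present in 36 of them (73.5%) and in 50.2% of 14876 protein-coding genes of the array, and CCAAT on either strand was in 21 of them (42.9%) and in 38.6% of those genes. No motif share was taken over detected genes alone, so the difference is not read as particular to the chromatin genes. Neither motif lies inside the other. Windows of the chromatin genes held a median of 22 CG pairs, against 15 for all these genes and 20 for those detected. The *Smarcc1* window held 33 CG pairs, that of *Kdm1b* 26 and that of *Arid1b* 42, so the windows on both sides were CG-rich. In the *Arid1b* window an ATG well before the annotated start opens a reading frame without a stop up to the window's end. That window may therefore be coding sequence, and its box and CG pairs are not read as those of a promoter. A match is a description of these letters and shows no binding.

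**Figure D2:**
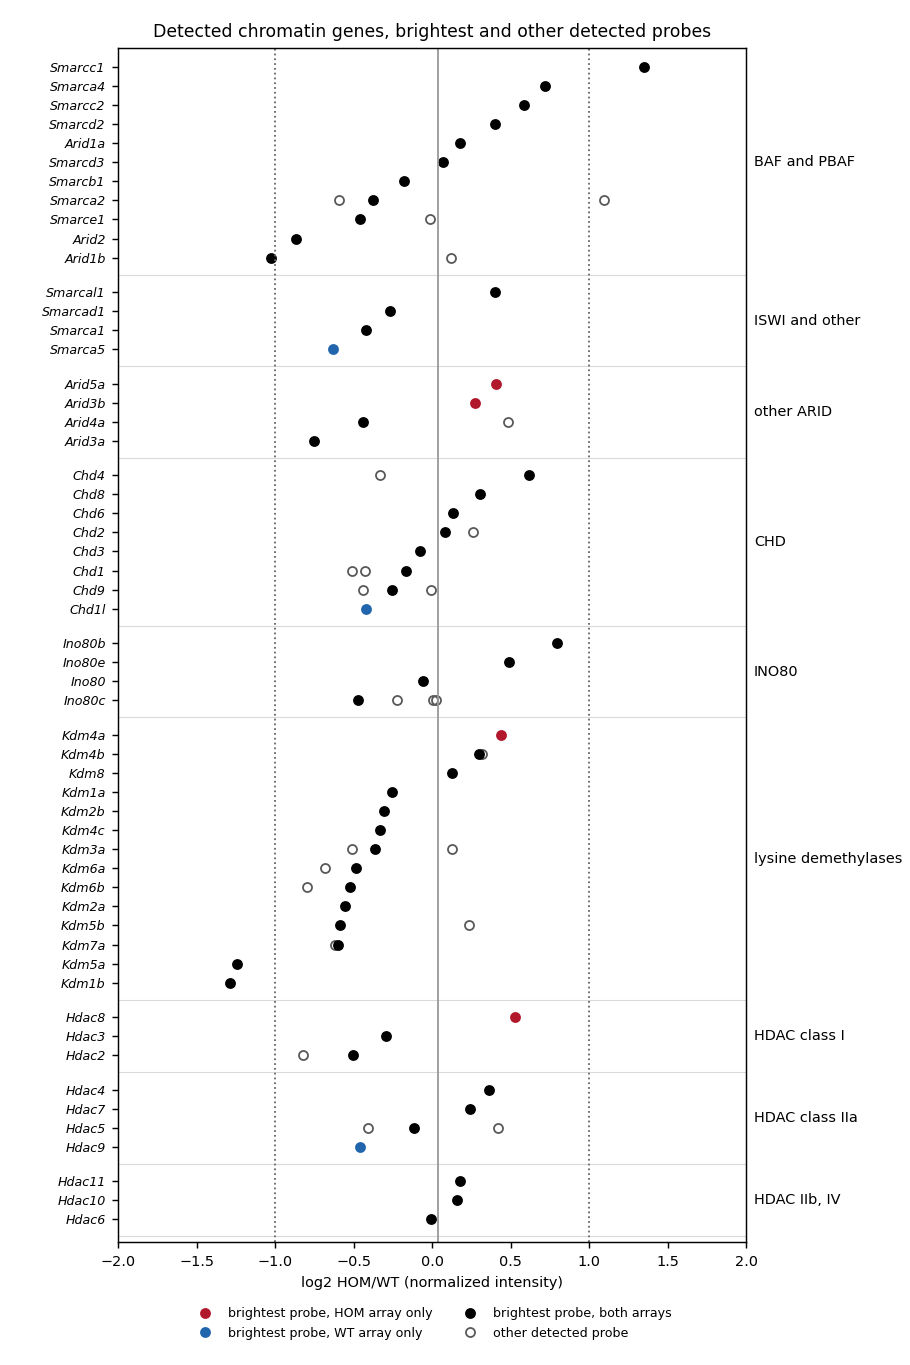
The plot shows log2 HOM/WT (horizontal axis) for the 55 detected chromatin genes, grouped by family, with a filled point for the brightest probe (red if detected on the HOM array only, blue if on the WT array only) and open points for other detected probes. Points detected on 1 array only are set against a signal not above background. The dotted lines mark 2-fold and the grey line the median of all detected genes (0.04). *Smarcc1* at 1.35 and *Kdm1b* at -1.29 lie at the ends, and the open points of *Smarca2* are probes detected on 1 array only, whose positions are not exact.

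Subunits of the BAF and PBAF complexes lay on both sides. Of 12 measured members 11 were detected, 6 with a log2 HOM/WT above 0 and 5 below, and the median was 0.07. The BAF complex takes 1 of a pair of ATPases. *Smarca4* (BRG1) had 112.5 on the HOM array and 50.7 on the WT array (log2 HOM/WT 0.72), and *Smarca2* (BRM) had 1924 on the HOM array and 2015 on the WT array (log2 -0.38). The log2 values of this pair differed by 1.09, by 0.89 with an offset of 50, 1.01 without scaling and 1.25 in the authors' normalized values. With the mean over the detected probes of *Smarca2* (0.04) in place of its brightest probe, the difference was 0.68. For scale, probes of 1 gene detected on both arrays varied in log2 HOM/WT with an SD of 0.31 over 2703 genes, and a difference of 2 such probes then has an SD of 0.43. The scaffold *Smarcc2* (BAF170), the close relative of *Smarcc1*, had 183.9 on the HOM array and 94.8 on the WT array (log2 HOM/WT 0.58). Both scaffold genes were thus on the side of *Smarca4*, and *Smarcc1* exceeded *Smarcc2* by 0.77, by 0.37 with an offset of 50 and by 1.26 in the authors' normalized values. Among the alternative subunits of the BAF60 type, *Smarcd2* had 2054 on the HOM array and 1243 on the WT array (log2 HOM/WT 0.40), *Smarcd3* had 171.2 on the HOM array and 131.3 on the WT array (log2 0.07) and *Smarcd1* was not detected. The core subunit *Smarcb1* (log2 -0.18, and 0.09 without scaling) and the HMG protein *Smarce1*, with 500.6 on the HOM array and 557.5 on the WT array (log2 -0.46), lay below 0, and the other probe of *Smarce1* gave -0.02. Of the ARID subunits, which set the complex apart as BAF or PBAF, *Arid1a* had 66.2 on the HOM array and 47.3 on the WT array (log2 HOM/WT 0.18), 1.21 above *Arid1b* on its brightest probe and 0.63 above the mean of its 2 probes. *Arid2*, the ARID subunit of PBAF, had 123.6 on the HOM array and 194.3 on the WT array (log2 HOM/WT -0.87).

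Other subunits of these complexes, outside the 66 genes, were listed from textbook knowledge. Of 18 measured BAF and PBAF partners 13 were detected, 6 above 0 and 7 below, with a median of -0.01. Past 2-fold was 1 of these 13, *Pbrm1*, which was lower, against 1.49% of all detected genes. *Pbrm1*, the PBAF subunit with several bromodomains, had 373.3 on the HOM array and 692.4 on the WT array (log2 HOM/WT -1.18, and -0.86 without scaling). Of its other 3 detected probes 2 had log2 values of -0.81 and -0.87, and 1 had 0.01. *Arid2* and *Pbrm1*, both specific to PBAF, were thus the low pair of that complex, but its other specific subunits *Brd7* (-0.04) and *Phf10* (-0.01) were near 0. Without scaling these 2 had 0.24 and 0.29, near the median of all detected genes in that setting (0.28). The other probe of *Brd7* gave 0.27 and that of *Phf10* gave -0.36. This grouping was made after the values had been seen. *Actl6a*, an actin-related subunit, had a log2 of -0.66.

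**Figure D3:**
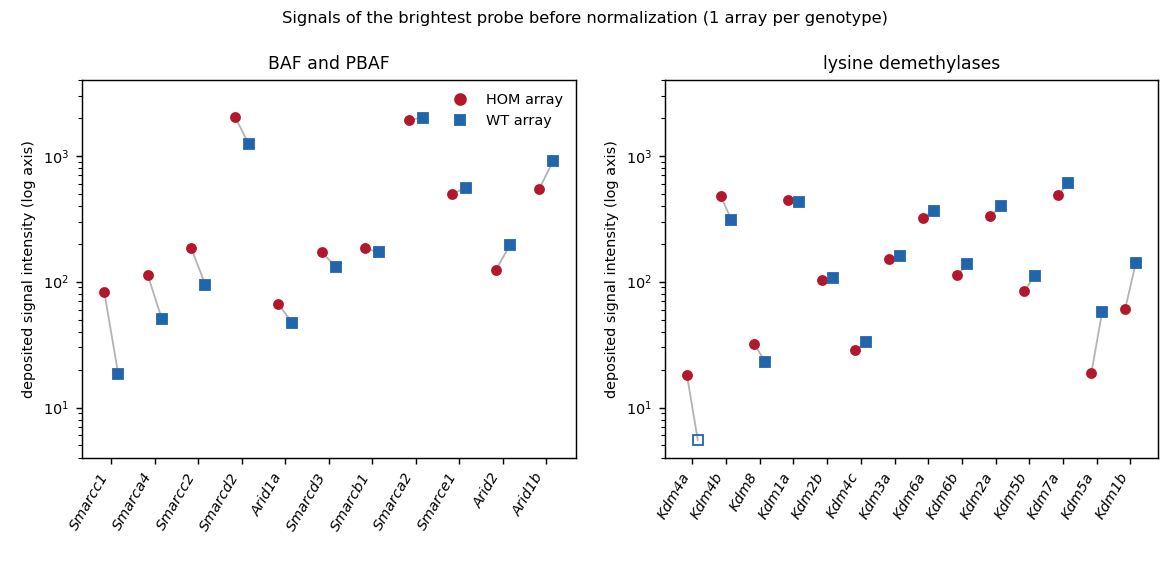
The plot shows the deposited signal (log axis) of the brightest probe on the HOM array (red circles) and the WT array (blue squares) for 11 BAF and PBAF genes (left) and 14 lysine demethylases (right), ordered by log2 HOM/WT, with open symbols where the probe was not detected. In the left panel the HOM signal is above the WT signal from *Smarcc1* to *Smarcb1* and below it from *Smarca2* to *Arid1b*. In the right panel 10 of the 14 HOM signals are below the WT signal.

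Lysine demethylases lay mostly on the low side. Of 18 measured genes 14 were detected, 2 were past 2-fold, both lower, against 1.49% of all detected genes. A log2 HOM/WT below 0 was found for 11 of the 14, and for 46.0% of all detected genes. Without scaling it was found for 10 of the 14, and for 26.4% of all detected genes. In both cases 11 of the 14 lay below the median of all detected genes. The median was -0.425, a difference of -0.465 from the median of all detected genes. That difference was -0.45 without scaling, -0.56 in the authors' normalized values and -0.39 with an offset of 50. With the mean over detected probes in place of the brightest probe, the list lay less far below all detected genes. *Kdm5b* then had -0.18 and *Kdm3a* -0.25, while *Kdm6a* (-0.59), *Kdm6b* (-0.66) and *Kdm7a* (-0.61) were lower than on their brightest probes. The 41 other detected chromatin genes had a median of -0.01, with 21 below 0. With 1 array a genotype, this is a description of the list and not evidence of a common change. The 8 detected uterine markers were also all below 0 (median -0.355), and the part of that shift in the demethylase values was not tested. Genes are grouped below by the residue of histone H3 that they act on.

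The demethylases of histone H3 lysine 4, whose methylation marks active promoters and enhancers, were all below 0 on their brightest probes where detected. They were *Kdm1b* and *Kdm5a* (above), *Kdm5b* and *Kdm1a*. *Kdm1a* (LSD1), a subunit of the CoREST corepressor, had 443.7 on the HOM array and 428.1 on the WT array (log2 HOM/WT -0.26). Without scaling *Kdm1a* had 0.05, where the median of all detected genes was 0.28. *Kdm5b* had 84.1 on the HOM array and 111.1 on the WT array (log2 -0.59), while its other detected probe had 87.8 on the HOM array and 60.2 on the WT array (log2 0.23), so its probes had opposite signs. *Rcor1*, the CoREST scaffold that binds *Kdm1a*, was close to 2-fold, with 124.2 on the HOM array and 210.8 on the WT array (log2 HOM/WT -0.97) and -0.81 on its other probe.

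The demethylases of lysine 27, the residue methylated by Polycomb, had values below 0 on every detected probe. *Kdm6a* (UTX), which is X-linked, had 322.6 on the HOM array and 367.7 on the WT array on one probe (log2 HOM/WT -0.49) and 205.4 and 276.3 on the other (log2 -0.68). *Kdm6b* (JMJD3), an inducible enzyme of inflammatory and developmental genes, had 112.2 on the HOM array and 137.8 on the WT array (log2 -0.53), and 24.8 and 46.5 on its other probe (log2 -0.80). *Kdm7a*, which acts on lysine 9 and lysine 27, had 488.4 on the HOM array and 603.3 on the WT array (log2 -0.60), and its other probe gave -0.62. None of these 3 genes was past 2-fold on any probe. Without scaling *Kdm6a*, *Kdm6b* and *Kdm7a* had log2 values of -0.18, -0.26 and -0.30 on the brightest probe, and all stayed below 0.

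The demethylases of lysine 9 and lysine 36 had values of both signs. *Kdm2a* had 333.1 on the HOM array and 399.6 on the WT array (log2 HOM/WT -0.55). *Kdm3a*, a hypoxia-induced enzyme, had a log2 of -0.36, *Kdm4c* one of -0.34 and *Kdm2b* one of -0.31. The 3 detected probes of *Kdm3a* ran from -0.51 to 0.13. In contrast, *Kdm4b*, an estrogen-responsive enzyme in human breast cancer cells, had 479.9 on the HOM array and 309.1 on the WT array (log2 0.30), with 0.32 on its other detected probe. *Kdm4a* was detected on the HOM array only, with 18.1 there and 5.52 on the WT array, which, held against the dimmest detected WT probe, gives no direction. *Kdm8*, placed in none of these residue groups, had 32.0 on the HOM array and 23.0 on the WT array (log2 0.13).

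The CHD family was centred near the median of all genes. Of 9 measured genes 8 were detected, 4 above 0 and 4 below, none was past 2-fold and the median was 0.00. *Chd4*, the main ATPase of the NuRD complex, had 588.2 on the HOM array and 303.3 on the WT array (log2 HOM/WT 0.62), while its other detected probe, close to the detection limit, had 16.4 on the HOM array and 21.4 on the WT array (log2 -0.33). *Chd3*, the other NuRD ATPase detected, had 284.4 on the HOM array and 243.5 on the WT array (log2 -0.08, and 0.21 without scaling). *Chd8* had 382.0 on the HOM array and 245.9 on the WT array (log2 0.30), and *Chd9* had 96.6 on both arrays (log2 -0.25), with -0.44 and -0.01 on its other detected probes. *Chd2* had 308.2 on the HOM array and 234.9 on the WT array (log2 0.08), with 0.26 on its other detected probe, and *Chd6* had a log2 of 0.13. *Chd1* was dim, with 23.0 on the HOM array and 23.3 on the WT array (log2 -0.17), and its other probe detected on both arrays gave -0.43. *Chd1l* passed detection on the WT array alone, with 6.64 on the HOM array and 15.2 on the WT array, and its bound of at least 1.06-fold lower in HOM is close to equality. *Chd7* and *Hdac1* had no probe named here.

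NuRD pairs these ATPases with HDACs. Of 8 measured NuRD partners outside the family 7 were detected, with a median of 0.37, or 0.335 above the median of all detected genes, and none past 2-fold. *Mbd3*, its methyl-CpG-binding-domain subunit, had 370.7 on the HOM array and 184.6 on the WT array (log2 HOM/WT 0.66), *Mta1* had a log2 of 0.66 and the histone chaperone *Rbbp7* one of 0.66, with 0.53, 0.45 and -0.50 on its other probes. By contrast, the deacetylase subunit *Hdac2* had 1054 on the HOM array and 1206 on the WT array (log2 -0.51), with -0.82 on its other probe, and *Rbbp4* had -0.35. Thus subunits of NuRD did not share a sign on these arrays.

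The remaining remodelers were INO80 and ISWI. Of 5 INO80 members 4 were detected with a median of 0.22. *Ino80b* had 178.3 on the HOM array and 78.4 on the WT array (log2 HOM/WT 0.79, and 1.04, past 2-fold, without scaling), *Ino80e* had 97.7 on the HOM array and 53.6 on the WT array (log2 0.49), the ATPase *Ino80* had 28.1 on the HOM array and 24.6 on the WT array (log2 -0.06, and 0.12 without scaling) and *Ino80c* had 222.2 on the HOM array and 255.0 on the WT array (log2 -0.47). The 4 detected probes of *Ino80c* ranged from -0.47 to 0.03. Of 9 measured INO80 partners 7 were detected and 6 had values above 0, among them the helicase *Ruvbl1* (0.37), while the deubiquitinase *Uchl5* had -0.97 on its brightest probe and 0.10, -0.46 and -0.39 on the other probes. Of the ISWI ATPases, *Smarca1* (SNF2L) had 132.9 on the HOM array and 148.6 on the WT array (log2 -0.42), and *Smarca5* (SNF2H) was detected on the WT array only, with 4.50 on the HOM array and 18.3 on the WT array, at least 1.17-fold lower in HOM. *Smarca5* also has a pseudogene copy, *Smarca5-ps*, whose probes were not detected. Of 8 measured ISWI partners 4 were detected, with *Bptf*, the large NURF subunit, at -0.66, *Rsf1* at -0.55, *Chrac1* at -0.34 and *Pole3* at 0.33. The probes of *Pole3* gave 0.75 and 0.04 besides. *Rsf1* had 2 further probes detected on the HOM array only, with signals of 17.7 on the HOM array and 8.12 and 3.99 on the WT array. A second probe of *Chrac1* was also detected on the HOM array only, with 20.1 there and 9.87 on the WT array (at least 1.06-fold higher in HOM). As means over detected probes *Rsf1* had 0.08 and *Chrac1* -0.01, so their low values rest on the brightest probe. *Smarcal1*, which acts at stalled replication forks, had 119.8 on the HOM array and 71.3 on the WT array (log2 0.40), and *Smarcad1* had 130.2 on the HOM array and 129.1 on the WT array (log2 -0.27, and 0.01 without scaling).

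Of the ARID genes outside BAF, 4 of 7 were detected. *Arid3a* had 50.5 on the HOM array and 80.1 on the WT array (log2 HOM/WT -0.75), and *Arid4a*, a retinoblastoma-binding protein, had 16.4 on the HOM array and 23.9 on the WT array (log2 -0.44). The other detected probe of *Arid4a* passed detection on the HOM array alone, with 20.4 on the HOM array and 6.69 on the WT array (at least 1.07-fold higher in HOM). *Arid5a*, an RNA-binding regulator of inflammatory transcripts, passed detection on the HOM array alone, with 19.4 on the HOM array and 7.53 on the WT array (at least 1.04-fold higher in HOM). *Arid3b* did so too, with 24.6 on the HOM array and 14.5 on the WT array (at least 1.19-fold higher in HOM).

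None of the 10 detected deacetylases was past 2-fold, and the medians of log2 HOM/WT were -0.29 in class I, 0.06 in class IIa and 0.16 in classes IIb and IV. In class I, the nuclear enzymes of corepressor complexes, *Hdac3* had 983.2 on the HOM array and 969.0 on the WT array (log2 HOM/WT -0.29, and 0.02 without scaling). Both *Hdac3* and *Hdac2* lay below the median of all detected genes, with and without scaling. *Hdac8*, which deacetylates cohesin, was detected on the HOM array only, with 20.4 on the HOM array and 5.43 on the WT array, at least 1.07-fold higher. In class IIa, which shuttles between nucleus and cytoplasm and binds MEF2 factors in muscle, *Hdac4* had 206.7 on the HOM array and 127.3 on the WT array (log2 0.36) and *Hdac7* had 320.0 on the HOM array and 217.9 on the WT array (log2 0.24). *Hdac5* had 310.2 on the HOM array and 272.9 on the WT array (log2 -0.12, and 0.18 without scaling), but another probe detected on both arrays gave 0.42, and one detected on the WT array alone had 7.47 on the HOM array and 15.4 on the WT array (at least 1.07-fold lower in HOM). *Hdac9* passed detection on the WT array alone, with 10.7 on the HOM array and 19.2 on the WT array (at least 1.20-fold lower in HOM). The class IIb enzyme *Hdac6*, the tubulin deacetylase, had 67.2 on the HOM array and 56.5 on the WT array (log2 -0.01, and 0.20 without scaling), and *Hdac10*, of the same class, had 71.9 on the HOM array and 52.2 on the WT array (log2 0.16). The class IV enzyme *Hdac11* had 72.4 on the HOM array and 51.7 on the WT array (log2 0.18). Of 16 measured corepressor partners 11 were detected, none past 2-fold, with *Sin3a* highest at 0.49 and *Rcor1* lowest.

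**Figure D4:**
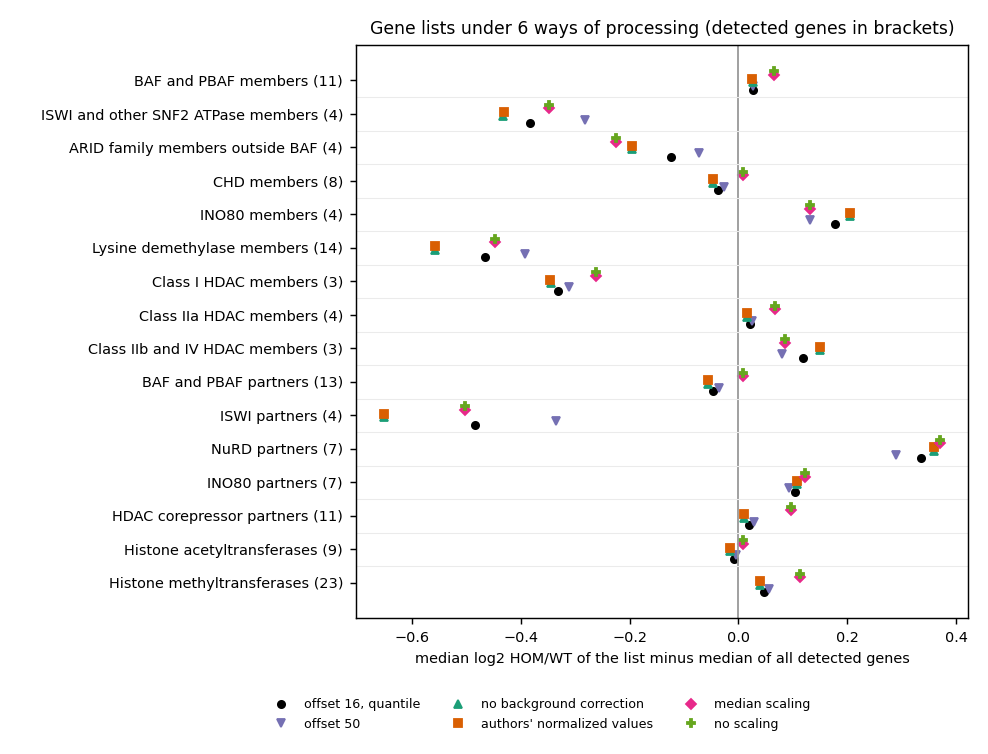
The plot shows, for 9 lists of the chromatin genes and 7 lists of their partners and of enzymes that write histone marks, the median log2 HOM/WT of the detected genes minus that of all detected genes (horizontal axis) under 6 ways of processing. Lysine demethylases, ISWI genes and class I HDACs lie left of 0 and NuRD partners right of 0 under each of the 6. Other lists keep 1 side too. ARID genes outside BAF lie left of 0, and INO80 genes, their partners, class IIb and IV HDACs and methyltransferases lie right of it. The lists of BAF, CHD and class IIa HDAC genes stay within 0.1 of 0. All use the brightest probe of a gene, and the class I list holds 3 genes.

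Probes of the same gene were then compared, over probes detected on both arrays. Of the chromatin genes 15 had 2 or more such probes, 34 probes in all. The SD of log2 HOM/WT between probes of a gene was 0.35 for these, against 0.31 over all genes. The probes had 1 sign in 9 genes and both signs in 6, and the median distance between the extremes was 0.43. The distance was 1 or more for 1 gene, *Arid1b* (1.15). The others with both signs were *Chd4*, *Kdm5b*, *Kdm3a*, *Hdac5* and *Ino80c*, with distances from 0.50 to 0.95. *Smarca2* had 1 probe detected on both arrays, the brightest, at -0.38. A second passed detection on the HOM array alone, with 41.6 on the HOM array and 7.22 on the WT array (at least 1.66-fold higher in HOM), and another on the WT array alone, with 5.43 on the HOM array and 18.1 on the WT array (at least 1.16-fold lower in HOM). These bounds point in opposite directions within the gene. *Kdm4b*, *Kdm7a*, *Chd2*, *Kdm6a*, *Chd1*, *Kdm6b* and *Hdac2* had probes within 0.32 of each other and of 1 sign, which is less than the SD of 0.43 for a difference of 2 probes. Which transcripts the separate probes of *Smarca2* and *Arid1b* read was not tested.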

How the data were processed

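RNA of 1 pool per genotype was measured on 1 Illumina MouseWG-6 array each. The authors deposited background-subtracted signal intensities exported from GenomeStudio, which the labels name without a version, and, also from the authors' software, a detection p-value for each probe against control beads. A second table of intensities deposited by the authors matched, within 1.57 at most, a quantile normalization of the linear signals computed here. Of 45281 probes 34885 carried 1 gene symbol, 18 several and 10378 were not listed, and the last 2 kinds were left out, 1 of them a *Kdm6b* probe shared with another gene. No member's symbol changed when updated by gene ID.

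The background was estimated from the detection p-values (nec of limma 3.58.1, R 4.3.3), 16 was added, and the arrays were quantile normalized as log2. Adding 16 pulls dim probes toward a ratio of 1. The brightest probe was that with the highest mean signal. For a probe detected on 1 array, the bound divides its normalized value there by the higher of its own value and that of the dimmest detected probe on the other array, with no allowance for error. No test was possible with 1 array per genotype. The rule of size was tested on simulated arrays, with an assumed noise and with changes placed in bright probes only. That simulation checks the computation and not the calls on dim probes such as those of *Smarcc1* and *Kdm5a*. The number of arrays limits the precision.

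Members, gene lists and the 12 alternatives were chosen with earlier results of these data known, and the lists come from textbook knowledge. Every member could be named. Full values are given for members past 2-fold, for up to 4 detected members with the highest absolute log2 HOM/WT in each list, for members with probes 1 or more apart and for the brightest detected member of each complex, and partners were named beyond the rule after their values had been seen.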

Additional observations from a re-analysis of the deposited data

How the results depend on the processing

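The count of 1 higher and 3 lower chromatin genes moved with the offset, the background correction and the fold. It was 0 and 0 with an offset of 50, 4 higher and 6 lower both without background correction and in the authors' normalized values, 4 and 8 at 1.5-fold and 0 and 0 at 3-fold. Without scaling it was 2 and 2, with *Ino80b* added as higher and *Arid1b* lost. The genes added in the authors' normalized values were *Arid5a*, *Hdac8* and *Kdm4a* as higher and *Chd1l*, *Hdac9* and *Smarca5* as lower, each detected on 1 array only. Over all genes, 41 higher and 146 lower became 4 and 48 with an offset of 50, 367 and 466 without background correction, 367 and 467 in the authors' normalized values, 154 and 50 without scaling, 517 and 815 at 1.5-fold and 0 and 8 at 3-fold. The member median of -0.166 was 0.094 without scaling and -0.056 as a mean over detected probes. Median scaling, the other detection rules, updated symbols and, chosen after seeing the data, RefSeq-annotated probes only left 1 higher and 2 or 3 lower, and a median from -0.18 to -0.14, but with RefSeq-annotated probes *Kdm5a* was lost, and with median scaling or the mean over probes *Arid1b* was. Of 34 genes followed over the alternatives, 27 kept 1 sign in all of them, and none of the 4 past 2-fold changed sign. The detection rules and updated symbols could not move a gene's value, nor could the mean over probes for genes with 1 detected probe. Much of this was therefore fixed in advance. *Hdac3*, *Hdac5*, *Hdac6*, *Ino80* and *Smarcad1* crossed 0 only without scaling, where they stayed below the median of all detected genes (0.28). Beyond these, signal over background limits the dim genes, whose ratios the offset holds near 1. No paired analysis was possible because each genotype has 1 array.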

Other observations

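Histone methyltransferases, of lysine and of arginine, and histone acetyltransferases were listed as well. Of 28 measured histone methyltransferases and their subunits 23 were detected, 13 with a log2 HOM/WT above 0 and 10 below, with a median of 0.09. At 2-fold 1 of the 23 was higher and 2 were lower, against 0.418% and 1.49% of all detected genes, and nothing is read from these few genes. The higher one was *Carm1*, an arginine methyltransferase and coactivator of steroid receptors. It had a signal of 199.3 on the HOM array and 67.2 on the WT array (log2 HOM/WT 1.14, and 0.90 with an offset of 50). Lower on the HOM array were *Kmt2e*, with 134.7 on the HOM array and 294.4 on the WT array (log2 -1.33), and *Setd7*, a lysine methyltransferase, with 154.6 on the HOM array and 297.4 on the WT array (log2 -1.17, and -0.88 without scaling). Each of the 3 has 1 detected probe, that of *Kmt2e* annotated to a cDNA clone or other record. Of the Polycomb subunits that methylate lysine 27, *Eed* had -0.80 and *Suz12* -0.44, while *Ezh2* was detected on the HOM array only, at least 1.11-fold higher. Subunits of the lysine 4 methyltransferase complexes had values of both signs, with *Kmt2b* at 0.63 and *Rbbp5* at 0.61 but *Kmt2c* at -0.75.

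Of 12 measured histone acetyltransferases 9 passed detection and none of these reached 2-fold. Their median was 0.03, with a range from -0.58 for *Ncoa1* (-2.54 without background correction), detected on the WT array only, to 0.37 for *Kat5*. Its median lay within 0.1 of the median of all detected genes under each way of processing.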
